A study of Mus musculus with 11 samples.

Results

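Known p53 target genes for metabolism, growth control and stress signals were followed in mouse embryonic fibroblasts (MEFs) under DNA damage. The genes are Sesn1, Sesn2, Tigar, Gls2, Ddit4, Pml, Gdf15, Ephx1, Sulf2 and Eda2r, and a gene was counted as measured when the platform annotation gave it as the only symbol of a probe set. By this rule 8 of the 10 genes were measured, each by 1 probe set, among 19937 genes in all. Gls2, a glutaminase, and Gdf15, a secreted stress factor, had no probe set listed in the annotation used here and are only named.

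RNA was compared in p53 LSL/LSL MEFs, in which the p53 gene stays off until a stop cassette is removed. In all groups AdenoCre (multiplicity of infection 5, 24 h) restored p53, siRNA or antisense oligonucleotides (ASO) were then transfected, and doxorubicin, which damages DNA, was added 24 h later at 150 nM for 12 h. The 11 arrays were 3 of p53 siRNA, 3 of control siRNA, 3 of Pint ASO and 2 of control ASO, where Pint is a long intergenic non-coding RNA induced by p53. Each knockdown therefore had its own control, the Pint ASO was a pool of oligonucleotides, and no array without restored p53 or without doxorubicin was analysed here, so every value is set against cells in which p53 had been restored and DNA damaged.

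p53 is a transcription factor that stress stabilises, and beside arrest and death genes it switches on genes that restrain growth and protect the cell. Sestrins (Sesn1, Sesn2) and Ddit4, also called REDD1, restrain mTORC1, the kinase complex that couples nutrients to growth, while Tigar lowers fructose 2,6-bisphosphate and with it glycolysis. Several of these genes also answer to other stress pathways, and Sesn2 and Ddit4 are known targets of ATF4, the transcription factor of the integrated stress response.

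The bases before the start of 3 members are shown, Pml and Sesn1 because a motif search found a p53 half-site there, and Sesn2 because its RNA moved in opposite directions with the knockdowns. They are RefSeq sequences of build GRCm38.p6, written 5′ to 3′ on the strand of the gene, with matches to the p53 half-site in capitals. The Pml stretch is chr9:58249797-58250036 on the minus strand, the Sesn1 stretch is chr10:41887189-41887438 on the plus strand before the second of its listed starts, inside the annotated gene, and the Sesn2 stretch is chr4:132510457-132510706 on the minus strand. The Pml stretch was cut and ends at -11 from the start used in the motif search, while those of Sesn1 and Sesn2 end at -1.
Pml: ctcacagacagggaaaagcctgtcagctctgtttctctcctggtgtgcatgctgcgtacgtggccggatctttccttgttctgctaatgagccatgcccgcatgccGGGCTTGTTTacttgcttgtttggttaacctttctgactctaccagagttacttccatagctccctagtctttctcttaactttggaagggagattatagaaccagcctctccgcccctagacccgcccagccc
Sesn1: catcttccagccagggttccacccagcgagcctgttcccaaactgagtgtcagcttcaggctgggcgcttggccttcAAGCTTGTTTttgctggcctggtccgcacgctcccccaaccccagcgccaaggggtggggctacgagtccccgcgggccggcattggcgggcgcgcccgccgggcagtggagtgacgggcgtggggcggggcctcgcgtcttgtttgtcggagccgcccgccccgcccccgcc
Sesn2: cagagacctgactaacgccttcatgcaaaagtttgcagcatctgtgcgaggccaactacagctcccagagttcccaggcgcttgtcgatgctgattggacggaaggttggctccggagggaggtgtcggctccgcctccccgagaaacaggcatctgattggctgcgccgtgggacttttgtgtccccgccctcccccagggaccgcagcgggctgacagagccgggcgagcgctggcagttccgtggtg
The p53 half-site was searched on both strands from 250 bases before to 50 bases after each start, and all 8 measured members had such windows, 10 in number. It was found in 2 of the 10 windows, that of Pml (first base at -144 from the start) and the second of Sesn1 (at -173), while 8.36% of all 32851 RefSeq windows held one. A full p53 site, with half-sites 0 to 13 bases apart and therefore overlapping the half-site motif, was in none of the members' windows and in 0.0731% of all windows. TGATGNAAT, a motif bound by ATF4 with its partners, was in none of the members' windows and in 0.965% of all windows, and TGACGTCA was in none and in 1.79%. CCAAT was in 8 of the 10 windows against 37.4% of all windows, GGGCGG in 9 against 35.7%, CATG, which overlaps some half-sites, in 5 against 61.1%, and TATAAA in 3 against 13.6%. A match is a run of letters and not a binding site, and the absence of one says only that these letters are not in this window.

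Values are log2 RMA intensities of a probe set, so levels are compared between groups and never between genes. Arrays of a group correlated at 0.991 to 0.995, arrays of different groups at 0.971 to 0.991, and 26038 of 34760 probe sets were bright enough to test. The SD within a group was 0.0026 to 0.15 over the measured members, with a median of 0.05. The probe set of Pint (Lncpint) read 8.60, 8.48 and 8.55 in Pint ASO, against 10.41 and 10.23 in control ASO, which is 29.2% of the control level (log2 difference -1.78, SE 0.12, adjusted p = 2.94e-05 by limma). With p53 siRNA it read 9.13, 9.02 and 9.06, against 9.43, 9.88 and 9.53 in control siRNA (log2 difference -0.54, SE 0.11, adjusted p = 0.00673), and control ASO was 0.71 above control siRNA (SE 0.12, adjusted p = 0.0137). The RNA of p53 itself was not analysed here. Of 12 fibroblast markers, 11 were over a log2 value of 6 in all arrays, the exception being Fap. Many markers of other cell types were over this value too, as given with the marker results. In these bulk samples, fewer cells of a type and less RNA per cell cannot be told apart.

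**Figure D1:**
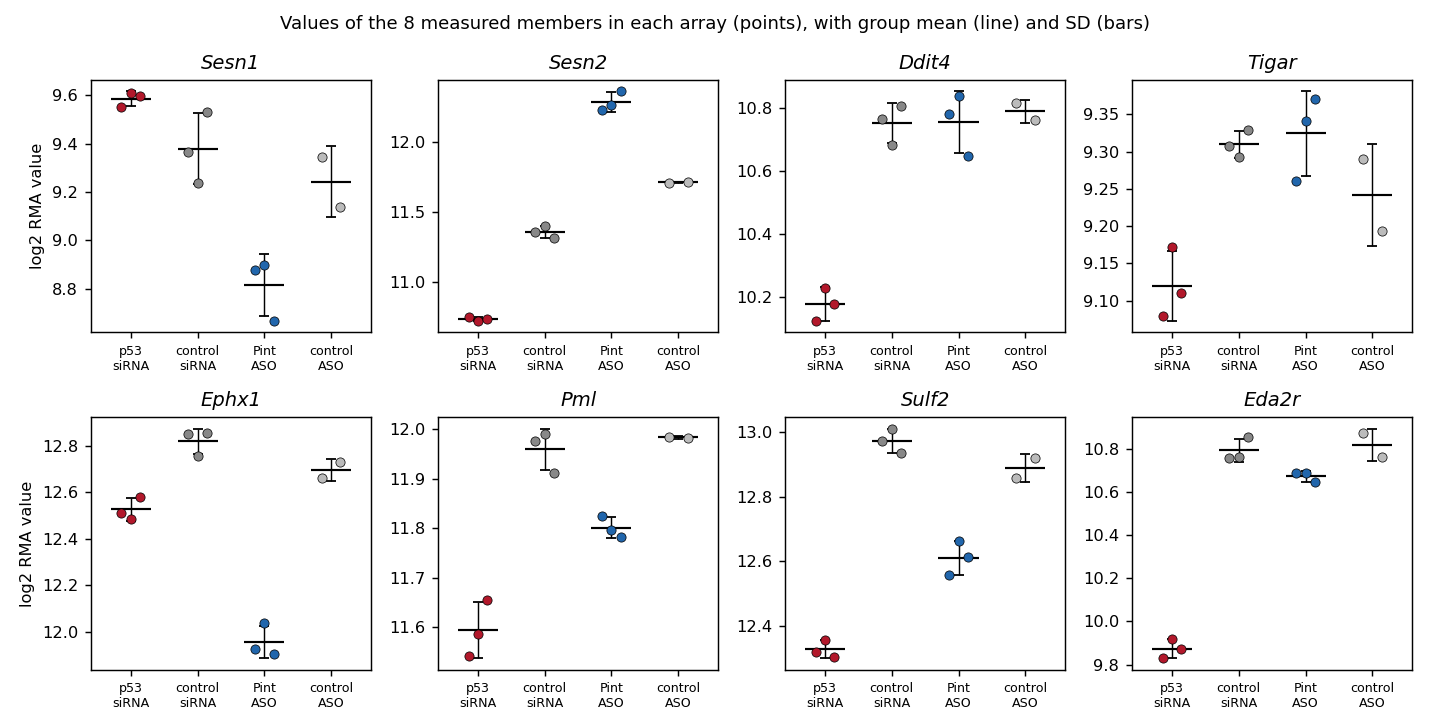
Log2 RMA value (vertical axis, own scale for each gene) of the 8 measured members in the 11 arrays, as points, by group (p53 siRNA, control siRNA, Pint ASO, control ASO), with the group mean as a line and the SD as bars. The p53 siRNA arrays lie below all control siRNA arrays for every member but Sesn1, and for Sesn2 the Pint ASO arrays, at 12.23 to 12.37, lie above all others.

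The first question was what knockdown of p53 did to the members. Of the measured members, 7 of 8 fell with p53 siRNA, while 8.96% of all probe sets tested fell and 16.9% changed in either direction. The deepest fall was that of Eda2r, which kept 52.9% of its control level, and the shallowest that of Tigar, which kept 87.7%. In all 8 members the arrays of p53 siRNA and control siRNA did not overlap, which held for 35.7% of all probe sets tested. The median log2 difference of the members was -0.47, against 0.01 for all probe sets tested. An exact permutation test of each member alone gave p = 0.1 (two-sided), the smallest that 3 arrays against 3 allow.

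Knockdown of Pint divided the same genes differently. With Pint ASO 4 of 8 members fell and 1 rose, while 10.7% of all probe sets tested fell and 19.1% changed in either direction. The 4 lower calls became 2 without control ASO replicate 1 and 1 with the siRNA and ASO arms fitted separately or with B over 3. B over 3 is the log odds threshold of the study, used here without its fold change cut-offs. Calls over all probe sets, in either direction, fell in the same fits from 4985 to 3388, 2025 and 812. Ephx1 fell most, to 59.9% of the control ASO level, Sesn2 rose to 149% of it, and Tigar, Ddit4 and Eda2r did not pass the test. Groups did not overlap in 6 of 8 members, against 40.4% of all probe sets tested, and the median log2 difference was -0.16, against 0.0037 for all. In all, 3 members (Pml, Ephx1 and Sulf2) fell with both knockdowns, against 2.16% of all probe sets tested, and 1 member, Sesn2, fell with p53 siRNA and rose with Pint ASO, against 1.18%. With the arms fitted separately, Pml (adjusted p = 0.134 by limma) and Sulf2 (0.0689) lost the Pint ASO call and Ephx1 alone fell with both. The remaining patterns were 3 members that fell with p53 siRNA without a call with Pint ASO (Tigar, Ddit4 and Eda2r) and 1, Sesn1, that fell with Pint ASO without a call with p53 siRNA.

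The difference between the effects was itself tested, as the Pint ASO effect minus the p53 siRNA effect. It passed the test in 7 of 8 members, with 5 positive and 2 negative, while 18.5% of all probe sets tested passed. Pml was the member whose effects were not shown to differ (difference 0.18, SE 0.07, adjusted p = 0.0976 by limma). The controls were set against each other in the same fit. Between control ASO and control siRNA, 1 of 8 members (Sesn2) passed the test, against 4.02% of all probe sets tested, and the other 7 differed by -0.14 to 0.04 on the log2 scale.

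**Figure D2:**
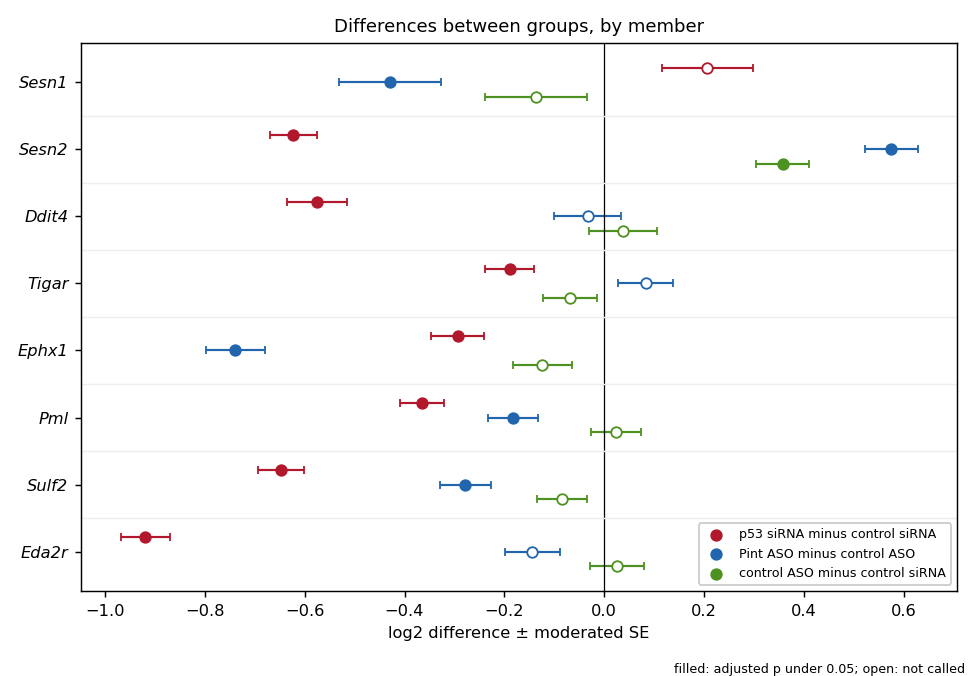
Log2 difference between groups (horizontal axis, points) with its moderated standard error (bars) for the 8 measured members, for p53 siRNA minus control siRNA (red), Pint ASO minus control ASO (blue) and control ASO minus control siRNA (green). Filled points passed the test (adjusted p under 0.05), and Sesn2 is the member with filled points on both sides of 0.

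Sesn2, a leucine-binding sestrin that holds mTORC1 in check when amino acids are scarce (Entrez gene 230784, chr4:132492804-132510456 in GRCm38.p6), moved in opposite directions. It read 10.75, 10.72 and 10.73 in p53 siRNA, against 11.36, 11.40 and 11.32 in control siRNA. It read 12.23, 12.27 and 12.37 in Pint ASO, against 11.71 and 11.72 in control ASO. The arrays thus fell into 4 bands without overlap, with p53 siRNA lowest, then control siRNA, control ASO and Pint ASO. The log2 difference was -0.62 with p53 siRNA (SE 0.05, adjusted p = 2.35e-05 by limma) and 0.57 with Pint ASO (SE 0.05, adjusted p = 0.000123 by limma). The Pint ASO effect exceeded the p53 siRNA effect by 1.2 (SE 0.07, adjusted p = 1.09e-05 by limma), which was the largest such difference among the measured members. Control ASO was already 0.36 above control siRNA (SE 0.05, adjusted p = 0.00719 by limma), a call that was lost without control ASO replicate 1 (0.36, adjusted p = 0.0541).

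Sesn1, the sestrin first known as PA26 in human cells (Entrez gene 140742, chr10:41810574-41908436), was the member without a call with p53 siRNA. It read 9.55, 9.61 and 9.60 in p53 siRNA, against 9.37, 9.24 and 9.53 in control siRNA. The p53 siRNA arrays all lay above the control arrays, by a narrow margin from control siRNA replicate 3, and the log2 difference of 0.21 did not pass the test (SE 0.09, adjusted p = 0.174 by limma). It read 8.88, 8.90 and 8.67 in Pint ASO, against 9.35 and 9.14 in control ASO. All Pint ASO arrays were lower than both controls, with a log2 difference of -0.43 (SE 0.10, adjusted p = 0.017 by limma). The call with Pint ASO was lost without control ASO replicate 1 (-0.33, adjusted p = 0.132 by limma). The effects of the knockdowns differed by -0.63 (SE 0.14, adjusted p = 0.0103 by limma), opposite in sign to the difference for Sesn2.

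Ddit4, which acts through the TSC1-TSC2 complex to inhibit mTORC1 under hypoxia, energy stress and DNA damage (Entrez gene 74747, chr10:59949675-59951770), fell with p53 siRNA and showed no call with Pint ASO. It read 10.12, 10.23 and 10.18 in p53 siRNA, against 10.77, 10.68 and 10.81 in control siRNA, 67.1% of the control level (log2 difference -0.58, SE 0.06, adjusted p = 0.000173 by limma). It read 10.78, 10.84 and 10.65 in Pint ASO, against 10.82 and 10.76 in control ASO, and the groups overlapped. The log2 difference with Pint ASO was -0.03 (SE 0.07, adjusted p = 0.799 by limma), and the effects differed by 0.54 (SE 0.09, adjusted p = 0.00285 by limma).

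Tigar, the fructose-bisphosphatase-like enzyme that lowers fructose 2,6-bisphosphate (Entrez gene 319801, chr6:127085116-127109552), had the smallest called change with p53 siRNA among the measured members. It read 9.08, 9.17 and 9.11 in p53 siRNA, against 9.31, 9.29 and 9.33 in control siRNA (log2 difference -0.19, SE 0.05, adjusted p = 0.026 by limma). It read 9.26, 9.34 and 9.37 in Pint ASO, against 9.29 and 9.19 in control ASO, where the groups overlapped and the log2 difference was 0.08 (SE 0.05, adjusted p = 0.364 by limma). The p53 siRNA arrays were the lowest of all 11 arrays. The call with p53 siRNA was not robust to the loss of an array: it was lost without any 1 control siRNA array, without p53 siRNA replicate 1 and without p53 siRNA replicate 3, with adjusted p between 0.0581 and 0.0889 by limma. The difference between the effects, 0.27 (SE 0.07, adjusted p = 0.0296 by limma), was not called in 8 of the 11 fits with 1 array left out.

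Ephx1, the microsomal epoxide hydrolase that turns reactive epoxides into diols (Entrez gene 13849, chr1:180989556-181017569), fell with both knockdowns, more with Pint ASO. It read 11.93, 12.04 and 11.91 in Pint ASO, against 12.66 and 12.73 in control ASO (log2 difference -0.74, SE 0.06, adjusted p = 6.31e-05 by limma). It read 12.51, 12.49 and 12.58 in p53 siRNA, against 12.85, 12.76 and 12.85 in control siRNA (log2 difference -0.29, SE 0.05, adjusted p = 0.0043 by limma). No array of either knockdown reached its controls, and all Pint ASO arrays lay below all p53 siRNA arrays. The effects differed by -0.44 (SE 0.08, adjusted p = 0.00402 by limma).

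Pml, the scaffold protein of the nuclear bodies that bear its name (Entrez gene 18854, chr9:58217179-58249796), also fell with both. It read 11.54, 11.59 and 11.65 in p53 siRNA, against 11.98, 11.99 and 11.91 in control siRNA (log2 difference -0.37, SE 0.04, adjusted p = 0.000427 by limma). It read 11.82, 11.80 and 11.78 in Pint ASO, against 11.99 and 11.98 in control ASO (log2 difference -0.18, SE 0.05, adjusted p = 0.0313 by limma). The control arrays of both kinds lay together above the Pint ASO arrays, which lay above the p53 siRNA arrays. Among the 11 fits with 1 array left out, 7 did not call Pml with Pint ASO, namely those without either control ASO array, without any 1 Pint ASO array, and without control siRNA replicate 1 or p53 siRNA replicate 2 (log2 difference -0.19 to -0.17, adjusted p = 0.0501 to 0.118 by limma).

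Sulf2, an extracellular enzyme that removes sulfate groups from heparan sulfate (Entrez gene 72043, chr2:166073899-166155683), fell with both knockdowns, more with p53 siRNA. It read 12.32, 12.36 and 12.30 in p53 siRNA, against 12.97, 13.01 and 12.94 in control siRNA (log2 difference -0.65, SE 0.05, adjusted p = 1.61e-05 by limma). It read 12.56, 12.66 and 12.61 in Pint ASO, against 12.86 and 12.92 in control ASO (log2 difference -0.28, SE 0.05, adjusted p = 0.00472 by limma). The order from low to high was p53 siRNA, Pint ASO, control ASO and control siRNA, without overlap between neighbours. The top neighbours, control ASO and control siRNA, differed by -0.08 on the log2 scale, which did not pass the test (adjusted p = 0.455 by limma). The effects differed by 0.37 (SE 0.07, adjusted p = 0.00473 by limma).

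Eda2r, a receptor for ectodysplasin in the TNF receptor family (Entrez gene 245527, chrX:97333837-97377234), had the strongest response of the members to p53 siRNA. It read 9.83, 9.92 and 9.87 in p53 siRNA, against 10.76, 10.76 and 10.85 in control siRNA (log2 difference -0.92, SE 0.05, adjusted p = 4.38e-06 by limma). It read 10.69, 10.69 and 10.64 in Pint ASO, against 10.87 and 10.76 in control ASO. The Pint ASO arrays lay just below both controls, yet the log2 difference of -0.14 did not pass the test (SE 0.05, adjusted p = 0.105 by limma). The effects differed by 0.77 (SE 0.07, adjusted p = 0.00011 by limma).

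Near relatives of the members did not all move with them. Sesn3, the third sestrin, read 9.47, 9.43 and 9.35 in Pint ASO, against 10.15 and 10.12 in control ASO, a fall like that of Sesn1 and unlike Sesn2 (log2 difference -0.71, adjusted p = 4.5e-05 by limma). With p53 siRNA its difference of 0.10 did not pass the test (adjusted p = 0.194 by limma). Ddit4l, the REDD2 paralog of Ddit4 that also restrains mTORC1, fell with p53 siRNA by 0.92 on the log2 scale (adjusted p = 4.38e-06 by limma) and differed by -0.12 with Pint ASO (adjusted p = 0.168 by limma), the same pattern of calls as Ddit4. Sulf1, the sister enzyme of Sulf2, fell with Pint ASO (-0.23, adjusted p = 0.0213 by limma) and showed no call with p53 siRNA (0.14, adjusted p = 0.115 by limma). Ephx3, another epoxide hydrolase, read 8.37, 8.24 and 8.20 in Pint ASO, against 6.75 and 6.83 in control ASO, and so rose where Ephx1 fell (1.48, SE 0.16, adjusted p = 0.000277 by limma). Its value with p53 siRNA, 5.90 to 6.48, overlapped that of control siRNA, 6.30 to 6.49. Edar, the other ectodysplasin receptor, passed no test, with differences of 0.03 with p53 siRNA (adjusted p = 0.845 by limma) and 0.05 with Pint ASO (adjusted p = 0.733 by limma), and its ligand Eda rose with p53 siRNA by 0.32 (adjusted p = 0.00513 by limma).

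**Figure D3:**
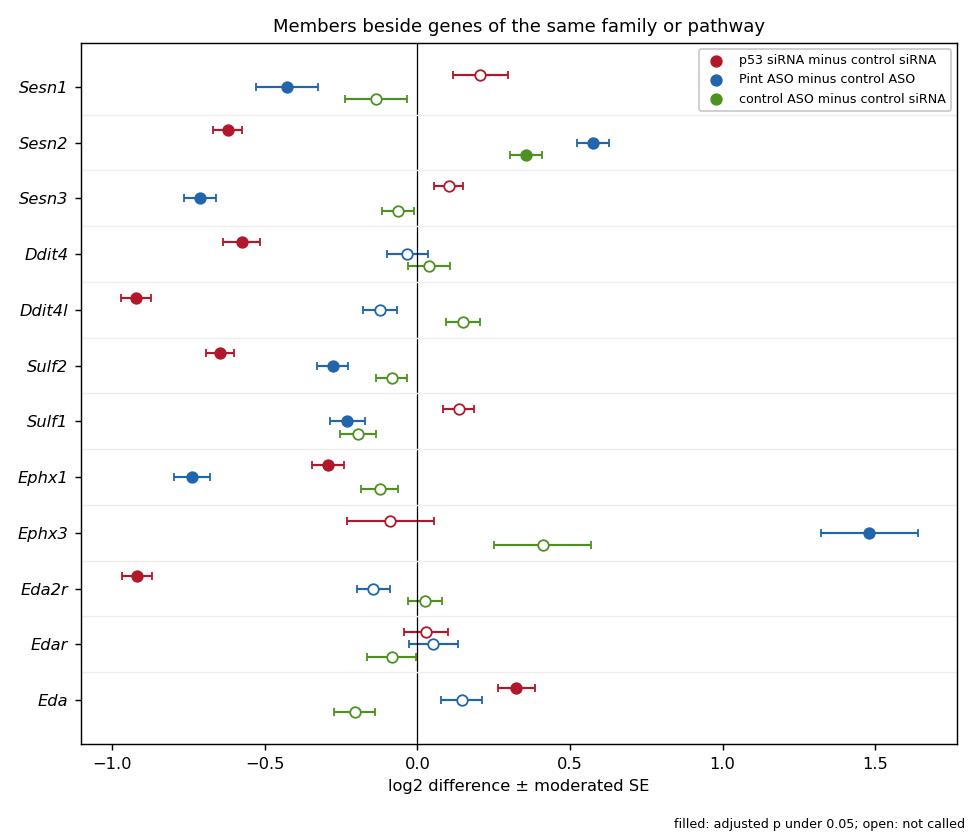
Log2 difference between groups (horizontal axis, points) with its moderated standard error (bars) for members and for genes of the same family or pathway, coloured as p53 siRNA minus control siRNA (red), Pint ASO minus control ASO (blue) and control ASO minus control siRNA (green); filled points passed the test. With Pint ASO, Sesn1 and Sesn3 lie left of 0 and Sesn2 right of it, and Ephx1 at -0.74 stands opposite Ephx3 at 1.48.

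The members were then read beside the other genes of their pathways. For the list counts that follow, 8.96% of all probe sets tested fell and 16.9% changed in either direction with p53 siRNA. With Pint ASO 10.7% fell and 19.1% changed in either direction. Of 26 other known p53 targets tested, 19 fell and 1 rose with p53 siRNA (median -0.57), led by Perp, a desmosomal death effector (-1.99), Rprm, a mediator of G2 arrest (-1.07), Pidd1, a scaffold of caspase activation (-1.01), and Mdm2, the ubiquitin ligase of p53 (-0.96). Cdkn1a and Bax, also on this list, had no probe set listed in the annotation used here and are not among the 26. With Pint ASO 3 of the 26 fell and 4 rose (median 0.01). The death receptor Fas fell (-0.73), while Gadd45a, a growth arrest gene (0.76), and the kinases Plk3 (0.71) and Plk2 (0.58) rose. In p53 siRNA the mean of Plk2 was 11.39, against 11.90 in control siRNA, and that of Plk3 was 9.51, against 9.75. For Gadd45a it was 8.72, against 8.76. Plk2 and Plk3 had lower means with p53 siRNA and rose with Pint ASO, as Sesn2 did. With Pint ASO the measured members thus had 4 of 8 lower and 1 higher, and the other p53 targets 3 of 26 lower and 4 higher. Of all probe sets tested 10.7% were lower, near the share of the other targets. The 4 of 8 became 2 without control ASO replicate 1 and 1 with the arms fitted separately, where calls over all probe sets fell too. The difference between the lists was not tested because the members were chosen with results known.

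Of 35 genes of mTORC1 and its nutrient and growth factor control, 3 rose and 5 fell with p53 siRNA (median -0.03), and 6 rose and 5 fell with Pint ASO (median -0.05). Castor1, the arginine sensor upstream of mTORC1, fell with both (-0.38 with p53 siRNA and -0.47 with Pint ASO). Deptor, an mTOR inhibitor, and Seh1l, a subunit of the GATOR2 complex that sestrins bind, rose with p53 siRNA (0.30 and 0.27), and Flcn and its partner Fnip1, which act on the Rag GTPases, rose with Pint ASO (0.42 and 0.41). These were 8 and 11 of 35 genes, against 16.9% and 19.1% of all probe sets tested.

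Genes of ATF4 and the integrated stress response were mostly higher. With Pint ASO 26 of 27 rose and none fell (median 0.46), and with p53 siRNA 13 rose and 2 fell (median 0.17). Between control ASO and control siRNA 19 were higher and none lower (median 0.36), where 4.02% of all probe sets tested were called in either direction. Aldh1l2 and Mthfd2, enzymes of mitochondrial folate metabolism, rose with p53 siRNA (0.56 and 0.46), as did the stress factor Nupr1 (0.54) and the gluconeogenic enzyme Pck2 (0.51). With Pint ASO the leading members were Aldh1l2 (1.16), the cysteine-forming enzyme Cth (1.04), the arginine transporter Slc7a1 (0.93) and Ppp1r15a, a phosphatase subunit that restores translation (0.88). Sesn2 was higher in 2 comparisons in which most of this list was higher, Pint ASO against control ASO and control ASO against control siRNA. Its call between the controls was lost without control ASO replicate 1. With p53 siRNA, where 13 of the list rose and 2 fell, Sesn2 fell (-0.62). Of the list, Slc7a11 was lowest with p53 siRNA (-0.40), with a mean of 10.46 against 10.85 in control siRNA. Its mean was 12.29 in Pint ASO, against 11.73 in control ASO, so its group means had the same order as those of Sesn2. Ppp1r15a had a mean of 8.93 in p53 siRNA, against 9.12 in control siRNA. Ddit4 was called in neither of the first 2 comparisons and fell with p53 siRNA. The part of this list's change in the result for Sesn2 was not tested.

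Of 19 genes of fructose 2,6-bisphosphate, upper glycolysis and glutamine use, 7 rose and 1 fell with p53 siRNA (median 0.12). Pfkfb3, which makes fructose 2,6-bisphosphate, rose (0.61), its relative Pfkfb2 fell (-0.41), and the phosphofructokinases Pfkl and Pfkp rose (0.51 and 0.35). With Pint ASO 7 rose and 3 fell (median 0.03), with Aldh18a1, of proline synthesis (0.52), the transaminase Gpt2 (0.42) and the glutamine carrier Slc38a1 (0.37) higher and the muscle-type phosphofructokinase Pfkm lower (-0.49). Among 12 genes of PML nuclear bodies, Daxx and Hipk2, partners of PML, rose with p53 siRNA (0.33 and 0.30) and none fell (median 0.04). These 2 of 12 were near the 16.9% of all probe sets tested that were called with p53 siRNA. With Pint ASO 5 rose and 1 fell (median 0.13), with Usp7, a deubiquitinase (0.43), the SUMO protease Senp6 (0.35) and Daxx (0.33) higher, and Sp100, the other classic nuclear body component, lower (-0.82).

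Of 23 genes of heparan sulfate synthesis and modification, 11 fell and 1 rose with Pint ASO (median -0.22), and 5 fell and 4 rose with p53 siRNA (median 0.09). Hpse, the heparanase, read 8.27, 8.18 and 8.10 in Pint ASO, against 8.85 and 8.83 in control ASO (-0.66), whereas it read 9.77, 9.77 and 9.73 in p53 siRNA, against 9.04, 9.05 and 8.90 in control siRNA (0.76). The syndecan Sdc4 likewise fell with Pint ASO (-0.49) and rose with p53 siRNA (0.30), the epimerase Glce rose with Pint ASO (0.55), and the sulfotransferases Ndst3 and Hs3st1 fell with p53 siRNA (-0.49 and -0.36). Like Sulf2, 3 proteoglycan genes of the list fell with both knockdowns, namely Sdc1 (-0.24 with p53 siRNA and -0.59 with Pint ASO), Gpc1 (-0.22 and -0.39) and Gpc4 (-0.20 and -0.24). Of all probe sets tested 2.16% fell with both. The other proteoglycan genes of the list, Sdc4, Gpc3, Gpc6 and Sdc2, had higher means in p53 siRNA than in control siRNA. These were 10.06 against 9.81 for Gpc3, 10.51 against 10.47 for Gpc6 and 11.64 against 11.59 for Sdc2. Hs3st3a1, which was not called with either knockdown, passed the filter only through the p53 siRNA arrays, and without it the medians were -0.23 with Pint ASO and 0.07 with p53 siRNA.

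Of 16 genes of epoxide and xenobiotic handling, 8 fell and 3 rose with Pint ASO (median -0.17), and 3 fell and 3 rose with p53 siRNA (median -0.11). The cytochrome Cyp2f2 fell most with Pint ASO (-1.57), followed by the glutathione transferases Gstt1 (-1.08) and Gsta4 (-0.85). With p53 siRNA Gstt1 and Gstm1, another glutathione transferase, rose (0.56 and 0.39), and Gclc, of glutathione synthesis, and the heme oxygenase Hmox1 fell (-0.49 and -0.44). Of 12 genes of ectodysplasin receptors and their signalling, 7 rose and none fell with Pint ASO (median 0.24), among them the NF-kappaB subunits Nfkb2 (0.50) and Relb (0.39) and their kinase Map3k14 (0.38). The adaptor Traf1 (0.46) passed the filter on low values only through the Pint ASO arrays, at 6.22, 6.21 and 6.28 against 5.73 and 5.82 in control ASO, and without it 6 of 11 genes rose (median 0.23). With p53 siRNA Eda and Traf2 rose (0.32 and 0.29) and none fell (median 0.08), 2 of 12 genes, near the 16.9% of all probe sets tested.

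**Figure D4:**
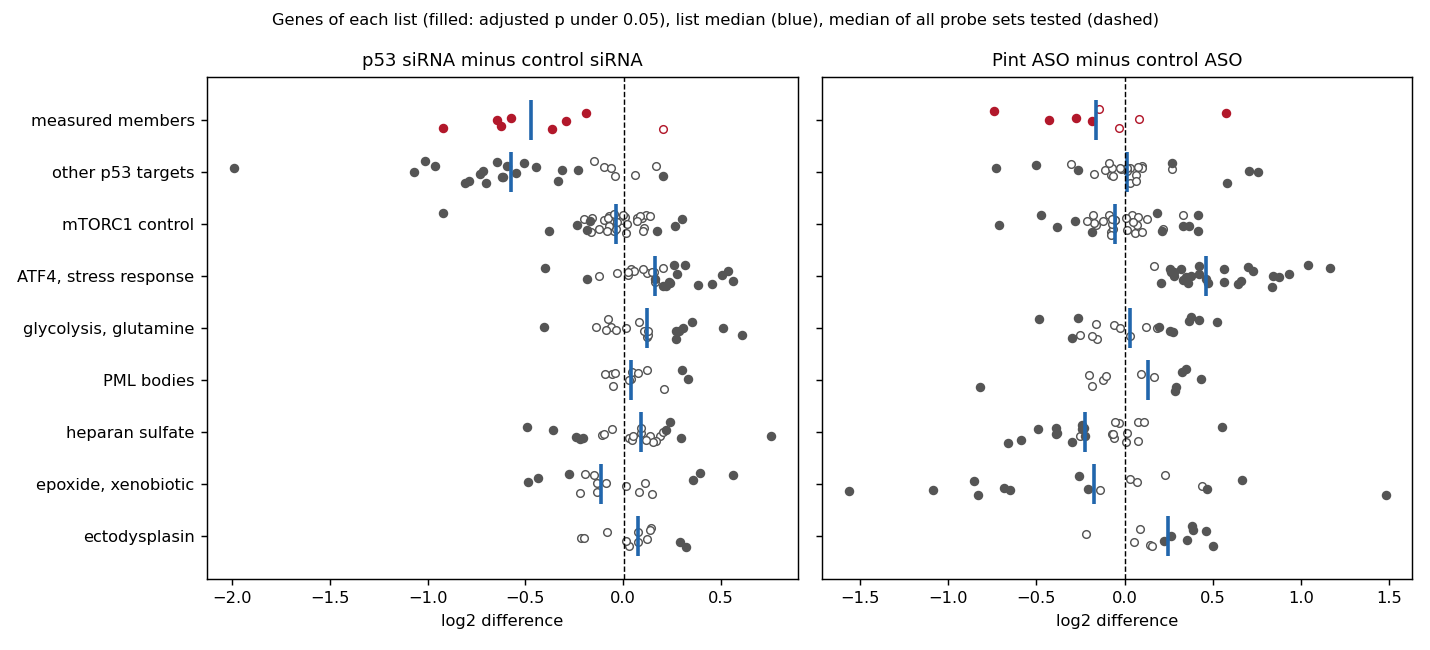
Log2 difference (horizontal axis) of each gene, by list, with p53 siRNA minus control siRNA on the left and Pint ASO minus control ASO on the right; filled points passed the test, blue bars mark list medians and the dashed line the median of all probe sets tested. The members lie mostly left of the dashed line on the left (median -0.47) and are spread over both sides on the right (median -0.16).

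Fibroblast markers moved with the groups too. For the marker counts that follow, 16.9% of all probe sets tested changed in either direction with p53 siRNA and 19.1% with Pint ASO. Of 12, 7 rose and none fell with p53 siRNA (median 0.31), with Col3a1 at 0.67, Pdgfrb at 0.50, Pdgfra at 0.48 and Lum at 0.45, while 9 fell and none rose with Pint ASO (median -0.48), with Lum at -1.08, Col3a1 at -0.95, Col1a2 at -0.67 and Col1a1 at -0.62. Their mean log2 value was 11.60 to 11.61 in p53 siRNA, 11.28 to 11.34 in control siRNA, 10.69 to 10.74 in Pint ASO and 11.16 to 11.17 in control ASO (lowest and highest array). With p53 siRNA they were thus higher where 7 members fell, and with Pint ASO they were lower where Sesn1, Pml, Ephx1 and Sulf2 fell and Sesn2 rose. Their part in the members' results was not tested. The markers of other cell types had list means of 6.65 to 7.45 in the arrays. Over 6 in every array were 6 of 8 of epithelium, 3 of 6 of blood, 7 of 8 of endothelium, 7 of 8 of muscle, 3 of 5 of adipocytes and 6 of 7 of neural cells. A value over 6 therefore does not set fibroblasts apart. Those not over 6 in every array were Epcam and Grhl2 of epithelium, Ptprc, Adgre1 and Itgam of blood, Emcn of endothelium, Myh3 of muscle, Adipoq and Lep of adipocytes and Gfap of neural cells. With p53 siRNA 1 of 6 epithelial (Krt18, -0.20), 2 of 4 blood (Cd68, -1.04, and Cd14, -0.51) and 1 of 7 muscle (Des, -0.87) markers fell and 1 of 3 adipocyte (Pparg, 0.21) and 1 of 7 neural (Map2, 0.29) markers rose, and no endothelial marker of 7 was called. With Pint ASO Cdh1 (-0.68), Cd68 (-0.47), Des (-0.35) and Tek (-0.17) fell, Kdr rose (0.77), and no adipocyte or neural marker was called.

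The genes with the most similar pattern to each member were found from the Euclidean distance between the means of the 4 groups, each gene centred on its own mean, over 16147 genes, as a description. For Sesn2 they were Lif, a cytokine (distance 0.119), and Hbegf, a growth factor (0.123). For Eda2r they were Cd80 (0.0506) and Fam122b (0.0679), for Ddit4 Fbxw7 (0.0177) and Sft2d2 (0.0317), and for Sulf2 Mgmt (0.063) and Col18a1 (0.0665). Pml was nearest to Srp72 (0.0279) and Ctc1 (0.03), Ephx1 to Gsap (0.0562) and Rpl21 (0.0621), a ribosomal protein gene with many near-identical copies, Tigar to Irf3 (0.00846) and Olfr1428 (0.0129), and Sesn1 to Cdkn2a (0.00455) and C2cd5 (0.00595). These distances depend on the size of a member's pattern, which is its own distance from a flat one. That size was 0.161 for Tigar, 0.565 for Sesn1 and 1.13 for Sesn2, so distances are not compared between members. The pattern of Lif had the same signs as that of Sesn2, with log2 differences of -0.61 with p53 siRNA and 0.62 with Pint ASO.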

How the data were processed

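Gene expression was measured on Affymetrix whole-transcript arrays from 300 ng of total RNA per sample. The deposited values are log2 intensities that the authors made with RMA, which corrects background, normalizes between arrays and summarizes probes, in a version not given in the sources used here. The study's texts name different array models, and the platform annotation used here is that of its probe identifiers. Of 34760 probe sets, 21640 carry 1 symbol, and the 1321 with several named no gene. Symbols were updated through Entrez identifiers.

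Probe sets entered the test if 2 or more arrays of any 1 group had a log2 value above 6, or 64 when unlogged. All 11 arrays were fitted together in limma 3.58.1 (R 4.3.3; group means, empirical Bayes without trend), and p-values were adjusted by Benjamini-Hochberg over all 26038 probe sets tested, with a call at adjusted p under 0.05. B over 3, the log odds threshold of the study, was an alternative, beside other filters, normalizations, blocks and the omission of each array. The study's methods also name log fold change cut-offs set for each contrast, which were not applied here. The fitting code was tested on simulated data, where it called most but not all of the genes given a change, fewer at the smaller size, so a missing call does not show that a gene was unchanged. The small number of arrays limits precision. Nothing in the labels says that replicates came from separate cultures, so the p-values reflect only the spread among these samples, which may be technical. The 2 control ASO arrays carry different numbers in their titles and their descriptions. The groups follow the labels.

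The members, the lists and the motifs were chosen with earlier results of these data known. Genes were named by a rule: all members, the targeted genes, up to 4 called genes of each list by absolute log2 difference in each knockdown comparison, and the 2 genes nearest to each member in pattern. Sesn3, Ddit4l, Sulf1, Ephx3, Edar and Eda, as relatives of members, were chosen after their values were seen. So were Gpc1, Gpc3, Gpc4, Gpc6, Sdc2, Hs3st3a1 and Slc7a11. Promoter windows and gene positions are those of RefSeq for GRCm38.p6.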

Additional observations from a re-analysis of the deposited data

Results flagged for a closer look

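The effects of the knockdowns differed in 7 of the 8 measured members by the test of the difference itself (limma, 3 arrays in each group but control ASO, which had 2). The Pint ASO effect minus the p53 siRNA effect was -0.63 for Sesn1 and -0.44 for Ephx1, whose levels were lower after Pint knockdown relative to control than after p53 knockdown. It was 1.2 for Sesn2, 0.77 for Eda2r, 0.54 for Ddit4, 0.37 for Sulf2 and 0.27 for Tigar, on the log2 scale. The difference for Tigar is the least secure of these.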

How the results depend on the processing

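Of 7 members called with p53 siRNA, 6 to 7 were called when 1 array was left out and 5 with B over 3, which Tigar and Ephx1 did not reach. Over all probe sets the calls with p53 siRNA went from 4408 to between 3199 and 4467 when 1 array was left out, and to 1021 with B over 3. Of 5 called with Pint ASO, 3 to 5 were called when 1 array was left out (3 without control ASO replicate 1), 2 when the siRNA and ASO arms were fitted separately and 2 with B over 3. Over all probe sets the calls with Pint ASO fell too, from 4985 to between 3388 (without control ASO replicate 1) and 4737 when 1 array was left out. They fell to 2025 with the arms fitted separately and to 812 with B over 3. Of the 7 differences between the effects, 6 to 7 were called when 1 array was left out and 2 with B over 3. The 1 call between the controls (Sesn2) became 0 to 1 when 1 array was left out (0 without control ASO replicate 1) and 0 with B over 3. In the main fit 4830 of 26038 probe sets were called for the difference and 1046 between the controls. Their totals with 1 array left out or with B over 3 are not given here. The members' lost calls in these 2 comparisons are therefore not set against all probe sets. The calls lost with the arms apart were Sesn1 (adjusted p = 0.075), Pml (0.134) and Sulf2 (0.0689) with Pint ASO, by limma. Tigar with p53 siRNA was also lost with median centring of the arrays (adjusted p = 0.0732), and Pml with Pint ASO without the filter (0.0506) and with a second quantile normalization (0.072). With the intensity trend the difference for Pml passed the test (adjusted p = 0.0366). Uncalled values changed sign for Ddit4 with Pint ASO without Pint ASO replicate 3 (-0.0748 to 0.0206 over the omitted arrays) and for Eda2r between the controls without control ASO replicate 1 (-0.0281 to 0.0791). Of single values under all alternatives, 640 kept their direction and side of the threshold, 45 lost a call, 1 gained one and 2 changed sign. Values called and not called in the main fit are counted together. Many alternatives could not change the log2 difference, as they altered only the filter, the spread estimate, the threshold or an array outside the comparison. The 640 are therefore no measure of robustness. The cause of the lost calls and changed signs was not tested.

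Replicate numbers were not taken as pairs, since deviations from the group means correlated at -0.284, -0.181 and -0.0371 between siRNA arrays of the same number. Between ASO arrays they correlated at -0.0463 and -0.42 by titles and at 0.42 and 0.375 by descriptions, too few pairs to decide. With the replicate number as a block, 6 (titles) and 7 (descriptions) members were called with p53 siRNA, 3 and 4 with Pint ASO, 6 and 7 for the difference, and 1 and 1 between the controls. Over all probe sets the calls were 3422 and 3864 with p53 siRNA, 3547 and 3958 with Pint ASO, and 3686 and 4060 for the difference. The totals between the controls under the blocks are not given here. Calls lost under the block by titles were Tigar with p53 siRNA (adjusted p = 0.0676), Sesn1 (0.0505) and Pml (0.0976) with Pint ASO and the difference for Tigar (0.0876), and by descriptions Pml with Pint ASO (0.0849).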
